A study of Mus musculus with 18 samples.

Results

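The hearts with Akt switched on after pressure overload were compared with the hearts after overload alone. All mice were males with the genotype Tet-myrAkt1/αMHC-tTA. Tet-myrAkt1 is a transgene for myristoylated Akt1, a form of the kinase that stays at membranes and active, under a promoter that tetracycline can control, and αMHC-tTA is the transactivator that drives it in heart muscle cells, so that other cells of the heart carry the transgene without driving it. The comparison held the 3 hearts whose titles read 3wkAkt/6wkpost, taken 6 weeks after AAC with Akt on, and the 3 whose titles read 4wkpost, taken 4 weeks after AAC. AAC is the operation that produced the overload. Both groups carried both transgenes, and both are labelled 12 weeks of age. The duration of Akt activation reads 3 weeks in the titles and 2 weeks in the descriptions. A further 3 hearts, taken before AAC at 8 weeks of age, entered the fit for their share of the spread. No heart at 6 weeks without Akt was analysed here, so Akt activation and the later time after AAC cannot be told apart. Each heart was hybridized to the chips 430A and 430B, which makes 12 of the 18 arrays of the series. The comparison ran over the 35041 probe sets with 1 gene symbol, of 45265 on both chips, of which 21850 passed a filter on low signal and stood for 12834 genes.

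Akt is the serine and threonine kinase through which insulin and insulin-like growth factors act downstream of PI3-kinase. In heart muscle it promotes growth and survival, moves the glucose transporter Slc2a4 to the cell surface and keeps FoxO transcription factors out of the nucleus, where they would turn on atrophy genes such as Fbxo32. Akt signalling in heart muscle is also known to send secreted factors to the vessels around it.

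The values are log2 of the deposited MAS5 signal, a linear intensity per probe set. The median signal was 174.3 to 206.7 on the 430A arrays and 62.18 to 70.48 on the 430B arrays, which were scaled separately, so that levels are compared between hearts and never between probe sets. Between hearts of the same group Pearson's r over probe sets lay at 0.939 to 0.968 (430A) and 0.852 to 0.918 (430B). The mean log2 signal of 4 atrial genes (Nppa, Myl4, Myl7 and Sln) differed widely within each group: it was 14.02, 9.96 and 7.03 in the 4-week hearts and 14.02, 8.04 and 11.08 in the Akt-on hearts. The log2 ratio of the 3′ to the 5′ control probe sets of β-actin and Gapdh, a measure of RNA integrity, differed by −0.15 to 0.01 between the groups over both chips (exact two-sided permutation p of 0.3 to 1.0, where 3 against 3 cannot go below 0.1). The hearts before AAC had higher ratios on chip 430A. For β-actin these were 0.57, 0.96 and 1.03, against 0.06 to 0.29 in the 4-week and Akt-on hearts. For Gapdh they were 0.10, 0.25 and 0.40, against −0.31 to −0.10. On chip 430B the Gapdh ratios were higher before AAC too, at −0.07, 0.20 and 0.15 against −0.37 to −0.10. The β-actin ratios of that chip were 0.54, 0.89 and 0.88 before AAC. They overlapped with the 0.15 to 0.60 of the 4-week and Akt-on hearts, where 4-week replicate 3 was highest. Nothing in the labels says whether the samples of a group came from separate animals, so all p-values measure only how far these samples spread, and fewer cells of a type and less RNA per cell cannot be told apart in whole tissue.

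Akt1 itself was followed through 3 probe sets. The probe set 1425711_a_at gave log2 signals of 9.16, 9.68 and 9.84 at 4 weeks and 11.35, 11.88 and 12.67 with Akt on. Before AAC it gave 9.47, 8.58 and 8.95. The 3 Akt-on hearts lay above the other 6 and differed among themselves, with Akt-on replicate 3 highest. The rise was 5.31-fold (log2 2.41, SE 0.31, limma adjusted p = 0.00337), and it stayed called whichever of the 9 hearts was left out. The other 430A probe set, 1416657_at, gave 9.86, 10.49 and 10.63 at 4 weeks and 10.49, 10.29 and 10.23 with Akt on, a difference of 0.01 (adjusted p = 0.986). On chip 430B 1440950_at differed by −0.02 (adjusted p = 0.974). These groups overlapped. Which of the 3 lies within the transgene is not given in the sources used here.

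**Figure D1:**
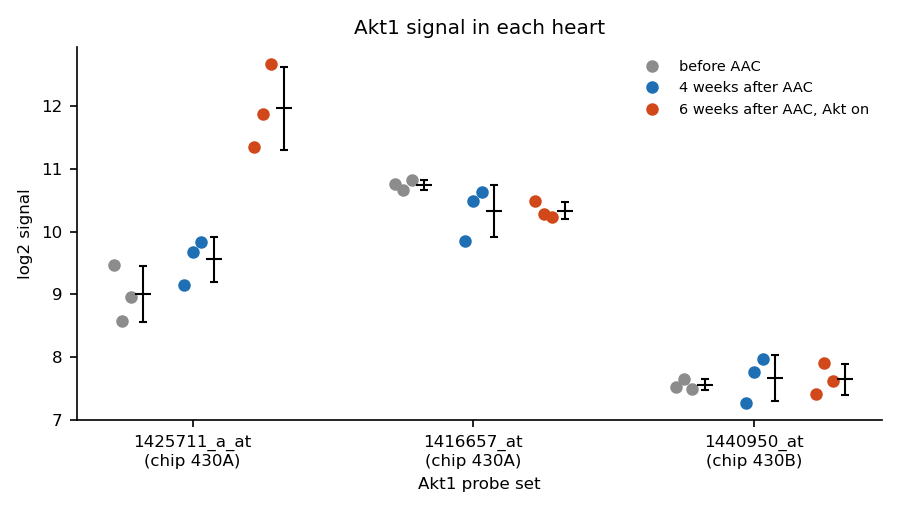
Log2 signal (vertical axis) of the 3 Akt1 probe sets (horizontal axis) in each of the 9 hearts, as points coloured by group, with the mean and SD of each group of 3 beside them. Probe set 1425711_a_at stood between 11.35 and 12.67 in the Akt-on hearts and at 9.84 or lower in all others, while the groups overlapped at the other probe sets.

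Across all probe sets tested, 648 differed between the groups at an adjusted p under 0.05, which is called here: 273 rose and 375 fell. That is 2.97% of the 21850, or 1.25% higher and 1.72% lower. Unadjusted, 4004 had a p under 0.05. The median size of a called difference was 0.94 on the log2 scale, 144 rises and 137 falls exceeded 2-fold, and the median difference of all probe sets was 0.03. The ranges of the groups stood apart in all 648, and in 4802 probe sets in all (22%). Read through 1 probe set a gene, 432 of 12834 genes were called (3.37%), 183 higher (1.43%) and 249 lower (1.94%). Counting every probe set, 564 genes had at least 1 call. Of the 356 of these that were tested by several probe sets, none had calls in opposite directions. The number called depended on single hearts: 66 rises and 112 falls stayed called whichever heart was left out. It was 235 without 4-week replicate 3, 353 without 4-week replicate 2, 332 without Akt-on replicate 2 and 421 without Akt-on replicate 3, and 378 and 431 without before-AAC replicates 3 and 2. Without the 4 hearts richest in atrial transcripts (4-week replicate 1, Akt-on replicate 1 and before-AAC replicates 2 and 3) it was 78, of which 69 were among the 648.

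**Figure D2:**
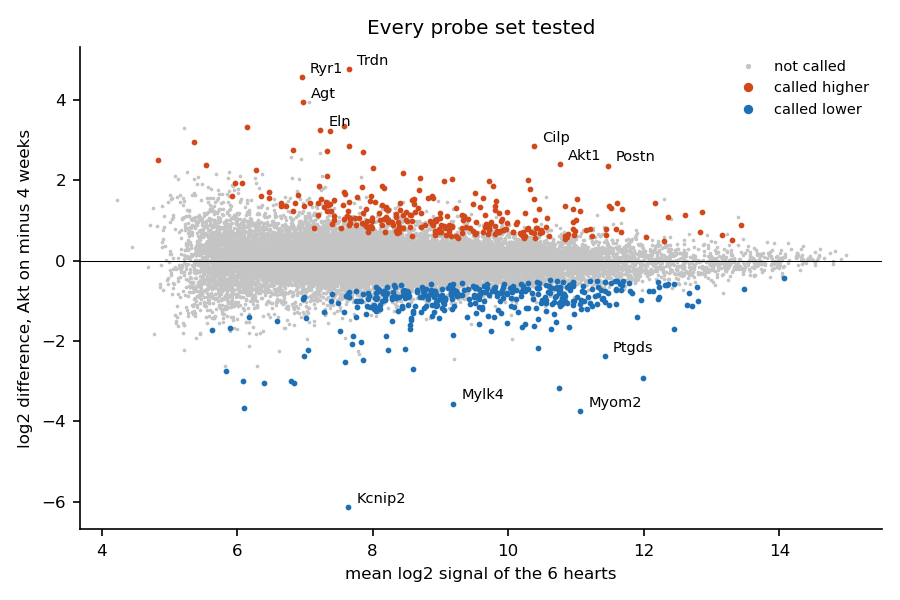
Log2 difference, Akt on minus 4 weeks (vertical axis), against the mean log2 signal of the 6 hearts (horizontal axis) for the 21850 probe sets tested, with the 273 called higher and the 375 called lower in colour. Kcnip2 at −6.13 and Trdn at 4.77 are the largest fall and the largest rise described in the text.

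The largest rise described was in Trdn. It encodes triadin, which ties calsequestrin to the calcium release channel at the junction of the sarcoplasmic reticulum. Its probe set 1426143_at gave 5.30, 5.18 and 5.31 at 4 weeks and 9.81, 9.67 and 10.62 with Akt on, against 6.04, 6.25 and 6.11 before AAC. It rose 27.3-fold (log2 4.77, SE 0.28, adjusted p = 2.2e-05). Its 4-week and before-AAC signals all lay below the lowest mean signal tested on chip 430A (127.4 before taking log2). It thus passed the filter only through the Akt-on hearts. A second Trdn probe set, 1426144_x_at, rose by 1.29 (adjusted p = 0.00525). The remaining 4 differed by 0.31, 0.28, −0.56 and −0.83 without a call, so that the probe sets of Trdn did not move together. Ryr1, the calcium release channel typical of skeletal muscle, gave 5.55, 5.46 and 2.98 at 4 weeks and 8.38, 9.50 and 9.83 with Akt on. Its rise was 23.8-fold (log2 4.57, SE 0.70, adjusted p = 0.00633), and its 430B probe set rose by 3.34, from 3.62, 4.30 and 5.51 to 7.28, 7.64 and 8.53. In both the 4-week hearts stood in the low range of the chip, where sizes are least certain. On each chip all 3 lay below its lowest mean signal tested (127.4 on 430A and 47.3 on 430B before taking log2). Casq1, the calsequestrin typical of skeletal muscle, was chosen after its values were seen: it gave 11.11, 10.81 and 10.65 at 4 weeks and 12.35, 12.32 and 11.85 with Akt on and rose by 1.32 (adjusted p = 0.00609). Casq2, the cardiac calsequestrin, rose by 0.50 (adjusted p = 0.0483), and Ryr2, the cardiac release channel, differed by 0.25 (adjusted p = 0.556).

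Beside these rises, the list of skeletal muscle markers had 0 of 3 tested members called, and their summed signals lay at 27603 to 31316 at 4 weeks and 30923 to 43960 with Akt on. The other 9 markers of that list, fast myosins and troponins among them, did not pass the filter, with signals of at most 107.6 at 4 weeks and 175.1 with Akt on. Their part in the rises of Ryr1 and Casq1 was not tested. Casq2 was no longer called without any 1 heart other than Akt-on replicate 1 (adjusted p up to 0.131), and Ryr1 at its 430B probe set without 4-week replicates 1 or 2 or Akt-on replicates 2 or 3 (adjusted p up to 0.101).

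Among secreted signals Agt, the precursor of angiotensin, gave 5.09, 5.36 and 4.52 at 4 weeks and 9.64, 7.81 and 9.38 with Akt on, a 15.5-fold rise (log2 3.95, SE 0.54, adjusted p = 0.00433). Before AAC it gave 4.85, 6.25 and 5.45, so that the Akt-on hearts stood above the other 6. Agt, and Crybb1 below, passed the filter on low signal only through the Akt-on hearts. Sfrp5, a secreted inhibitor of Wnt signalling, gave 7.26, 6.96 and 6.33 at 4 weeks and 9.09, 8.55 and 9.85 with Akt on and rose by 2.31 (adjusted p = 0.00497). The opsin gene Opn3 rose by 2.84, from 7.03, 5.28 and 6.40 to 8.85, 9.13 and 9.25 (adjusted p = 0.00285). Crybb1, which encodes a crystallin of the eye lens, rose by 2.73, from 6.29, 6.00 and 5.59 to 8.32, 8.57 and 9.19 (adjusted p = 0.00525), and had stood lower still before AAC (4.86, 4.62 and 4.33). These genes were ranked first by the number of fits without 1 heart that kept the call and then by size. The 12 rises ranked so also held Akt1 and, described with the matrix genes, Eln, Cilp, Tnc, Postn and Col1a1. Angptl4 rose more than some of them (log2 2.70) but lost its call in some of these fits. All 12 stayed called whichever heart was left out, which was the first rule of their choice.

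The largest fall described was in Kcnip2. It encodes KChIP2, the subunit that heart muscle needs for its transient outward potassium current, and gave 10.17, 9.73 and 12.21 at 4 weeks on chip 430B and 4.72, 4.60 and 4.39 with Akt on. Before AAC it gave 11.65, 11.62 and 11.73. The fall was 70.2-fold (log2 −6.13, SE 0.46, adjusted p = 0.000157). The 3 Akt-on hearts lay close together near the low end of the chip, while 4-week replicate 3 stood well above its 2 fellows. The 430A probe set of Kcnip2 gave 7.20, 6.60 and 10.03 at 4 weeks and 3.19, 5.08 and 4.54 with Akt on and fell 12.8-fold (log2 −3.68, adjusted p = 0.0262), a call that went without 4-week replicate 3 or Akt-on replicates 1 or 3 (adjusted p up to 0.0725).

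Myom2, the M-band protein M-protein, fell in all 3 of its probe sets. On chip 430A it gave 12.16, 12.04 and 12.80 at 4 weeks and 10.81, 8.35 and 8.33 with Akt on, a 9-fold fall (log2 −3.17, SE 0.51, adjusted p = 0.00785). The 430B probe sets fell too (log2 −3.75 and −2.92, adjusted p = 0.00269 and 0.00479). In each, Akt-on replicate 1 stood above the other Akt-on hearts and below every 4-week heart. Mylk4, of the myosin light chain kinase family, gave 10.51, 10.90 and 11.50 at 4 weeks and 7.98, 6.87 and 7.39 with Akt on and fell 11.8-fold (log2 −3.56, SE 0.29, adjusted p = 0.000166).

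The other falls, named first for keeping their call without 1 heart and then for size, had more varied roles. Ptgds, which makes prostaglandin D2, gave 12.25, 12.45 and 13.14 at 4 weeks and 10.13, 9.97 and 10.61 with Akt on and fell 5.19-fold (adjusted p = 0.00171), and its second probe set fell by 1.71. Tnfaip8, a gene induced by tumour necrosis factor, fell by 2.19, from 9.29, 9.42 and 10.02 to 7.69, 7.19 and 7.27 (adjusted p = 0.000714), while its 430B probe set differed by −0.44 without a call. Bex1 gave 9.04, 8.67 and 8.85 at 4 weeks, above the 7.81, 6.96 and 7.73 before AAC, and 6.58, 6.73 and 5.71 with Akt on (log2 −2.52, adjusted p = 0.00269). Lrrc4b, a synaptic adhesion protein in neurons, fell by 3.00, from 7.08, 7.62 and 8.04 to 4.61, 4.53 and 4.59, and Smim27, a small membrane protein, fell by 3.04, from 7.99, 7.88 and 7.87 to 5.41, 4.64 and 4.55. Arhgap9, a GTPase-activating protein, fell in both probe sets (log2 −3.05 and −1.17). Doc2g, a protein with C2 domains, fell by 2.19, from 11.56, 11.70 and 11.36 to 10.60, 8.63 and 8.82, and the endocytic adaptor Epn3 fell by 2.07, from 8.67, 8.65 and 8.87 to 6.69, 6.13 and 7.14. Galnt15, an enzyme of O-glycosylation, fell by 2.75 in one probe set, from 7.10, 6.85 and 7.69 to 3.54, 4.46 and 5.39 (adjusted p = 0.00577), and differed by −0.29 in the other, which was not called. The size of the first was −1.70 (adjusted p = 0.00384) with 32 added to each signal. The second probe set of Arhgap9 was no longer called without any 1 heart other than 4-week replicate 3 (adjusted p up to 0.139). The other called probe sets of these genes, from Ptgds to Galnt15, stayed called whichever heart was left out. For the probe sets by which the genes were named this was the first rule of their choice.

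**Figure D3:**
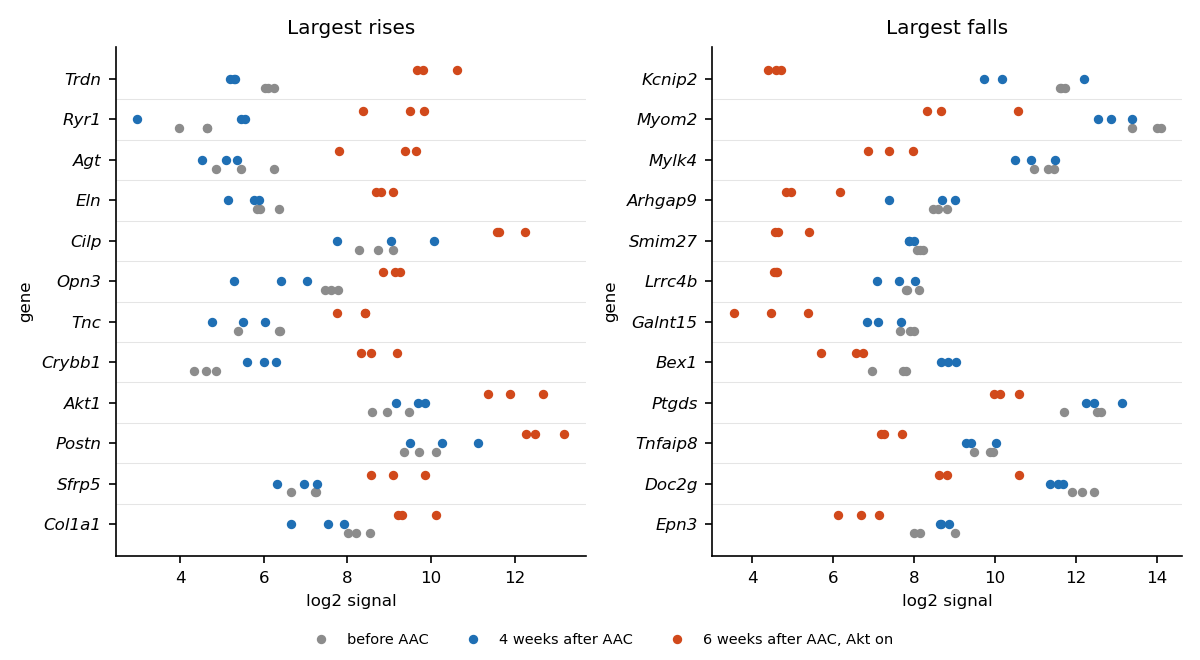
Log2 signal (horizontal axis) in each of the 9 hearts for 12 rises (left) and 12 falls (right), 1 probe set and 3 points a group for each gene. The genes were ranked first by the number of fits without 1 heart that kept the call and then by size. The Akt-on hearts lie apart from the 4-week hearts in all 24, which was part of how these genes were chosen.

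Of 46 extracellular matrix genes tested, 18 rose, none fell and 28 were not called, against 1.43% of all genes called higher. The hearts lay apart upward in 23 (12.5% of all genes) and downward in none, and the median log2 difference was 0.82 (0.03 over all genes). Cilp, a matrix protein named for cartilage, gave 10.08, 9.04 and 7.75 at 4 weeks and 11.63, 12.24 and 11.57 with Akt on, a 7.24-fold rise (log2 2.86, SE 0.45, adjusted p = 0.007). Postn, the matricellular protein of activated fibroblasts, gave 11.11, 10.25 and 9.50 at 4 weeks and 12.49, 13.18 and 12.27 with Akt on and rose 5.14-fold (log2 2.36, SE 0.35, adjusted p = 0.0057). Tnc, tenascin C, rose by 2.76, from 4.77, 6.04 and 5.50 to 8.42, 8.42 and 7.76 (adjusted p = 0.00763). In all 3 genes the 4-week hearts were spread over more than 1 log2 unit and the Akt-on hearts stood clear above them. All 4-week signals of Tnc lay below the lowest mean signal tested on chip 430A (127.4 before taking log2).

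Elastin, Eln, rose by 3.25 in one probe set (5.89, 5.76 and 5.14 at 4 weeks, 8.68, 8.80 and 9.08 with Akt on, adjusted p = 0.000588) and by 1.47 in the other. All 4-week signals of the former also lay below that lowest mean of chip 430A (127.4 before taking log2). Of the fibrillar collagens, Col1a1 gave 7.92, 7.53 and 6.64 at 4 weeks and 9.31, 10.11 and 9.20 with Akt on in one probe set (log2 2.18, adjusted p = 0.0054) and rose by 1.28 in the second. Col1a2 rose by 1.21 and 1.78, and differed by 0.86 without a call in its 430B probe set. Col3a1 rose by 1.14 and 1.43. Col5a1, which regulates fibril assembly, rose in all 3 probe sets by 0.96, 1.85 and 1.13. Mmp14, a membrane-bound matrix metalloproteinase, gave 8.50, 8.29 and 8.41 at 4 weeks and 9.40, 9.85 and 9.50 with Akt on (log2 1.18, adjusted p = 0.00404), with 1.15 and 0.51 in 2 uncalled probe sets. Sparc rose by 0.90 and 0.71, with −0.07 in an uncalled 430B probe set, Thbs1 by 1.45 and 1.39, and the metalloproteinase inhibitor Timp1 by 1.54. At both probe sets of Thbs1 the mean signal over the 4-week and before-AAC hearts lay below 127.4. Thbs1 thus passed the filter only through the Akt-on hearts. The remaining called members were Col5a2, Col8a1, Col15a1, Fn1, Lox and Ltbp2 (log2 1.52, 2.00, 1.19, 1.23, 1.21 and 1.83 at 1 probe set each). Decorin (Dcn) and lumican (Lum), proteoglycans that resident fibroblasts make in quantity, differed by −0.05 and 0.22 without a call.

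Among the fibroblast markers 4 of 14 rose (Col1a1, Col1a2, Col3a1 and Mfap5), the first 3 of which stand on the matrix list too, against 1.43% of all genes called higher, and the median was 0.23. None rose without 4-week replicate 2, 4-week replicate 3 or Akt-on replicate 2, or with a variance that had no trend. Without before-AAC replicate 2 or 3 or Akt-on replicate 1 the number was 2, and without the 4 atrium-rich hearts, or in the 6 hearts alone, it was 1. In the fit without Akt-on replicate 1 there was also 1 fall. Mfap5, a microfibril protein, rose by 1.36 and 1.69 in its 2 probe sets. The other 10, which hold the defining markers Pdgfra (0.01) and Tcf21 (0.23), were not called, with differences from −0.85 to 0.55. The summed signal of the 14 spanned 43592 to 69910 in the 4-week hearts and 52655 to 72608 in the Akt-on hearts. The part of the number of fibroblasts in the matrix rise was not tested. The count of matrix genes that rose was 9 to 23 with 1 heart left out at a time, lowest without 4-week replicate 3 (9), Akt-on replicate 2 (9) or 4-week replicate 2 (10), with none lower in any of these fits. Without the 4 hearts richest in atrial transcripts 6 rose and none fell (0.195% of all genes higher), with a median of 1.05. In the comparison of the 6 hearts alone 12 rose, and with a variance that had no trend 11 rose. Among the matrix and fibroblast probe sets given, these were no longer called with 1 heart left out: the second of Col1a1 without any 1 heart other than Akt-on replicate 3 (adjusted p up to 0.156), the first of Col1a2 without 4-week replicates 2 or 3 or Akt-on replicate 2 (adjusted p up to 0.0816), both of Col3a1 without 4-week replicates 2 or 3 or Akt-on replicate 2 (adjusted p up to 0.0773) and 4-week replicates 2 or 3 or Akt-on replicate 2 (adjusted p up to 0.0892), the second of Eln without 4-week replicate 3 (adjusted p = 0.0587), the third of Col5a1 without 4-week replicates 1 or 3 or Akt-on replicates 1 or 2 (adjusted p up to 0.0911), the second of Sparc without 4-week replicate 3 (adjusted p = 0.0667), the second of Thbs1 without 4-week replicates 2 or 3 or Akt-on replicate 2 (adjusted p up to 0.0864), Timp1 without 4-week replicates 2 or 3 or Akt-on replicate 2 (adjusted p up to 0.0635), and both of Mfap5 without any 1 heart other than before-AAC replicate 1 or 4-week replicate 1 (adjusted p up to 0.124) and Akt-on replicate 2 (adjusted p = 0.0634). Of the other members Lox was no longer called without any 1 heart other than Akt-on replicate 1 (adjusted p up to 0.133), Ltbp2 without any 1 heart other than 4-week replicate 1 (adjusted p up to 0.137), Fn1 without any 1 heart other than 4-week replicate 1 or Akt-on replicate 3 (adjusted p up to 0.161), Col15a1 without any 1 heart other than 4-week replicate 1 or Akt-on replicate 3 (adjusted p up to 0.106) and Col8a1 without Akt-on replicate 2 (adjusted p = 0.0502), while Col5a2 stayed called whichever heart was left out.

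**Figure D4:**
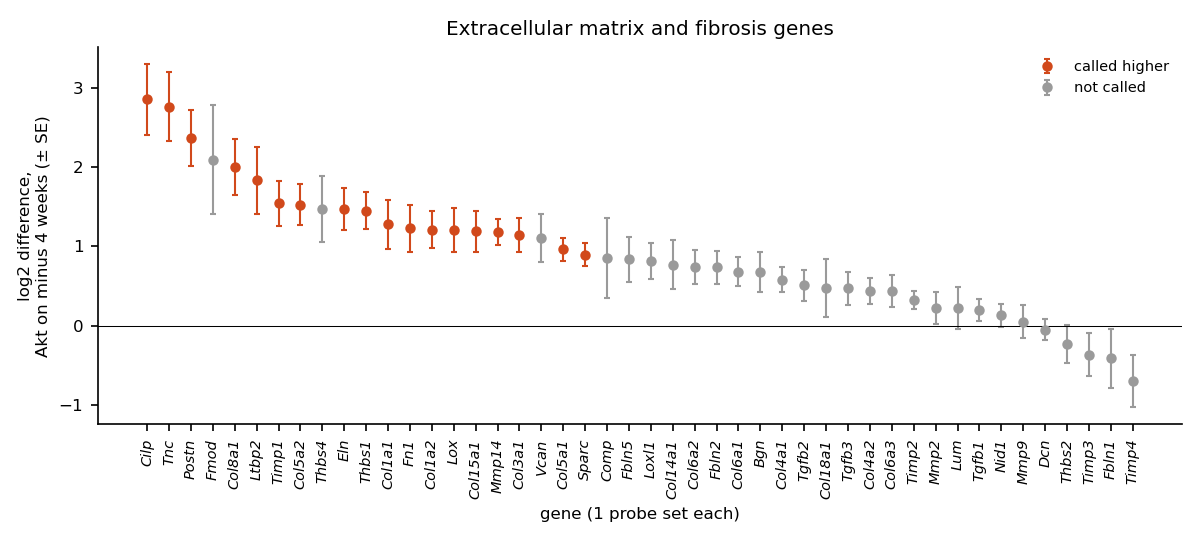
Log2 difference, Akt on minus 4 weeks, with its SE (vertical axis), for the 46 extracellular matrix and fibrosis genes tested (horizontal axis, 1 probe set each). The 18 called genes, in colour, all lie above 0, and 41 of the 46 do.

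In the pathway of insulin and IGF through PI3K, Akt and mTOR the calls went both ways. Of 41 genes 3 rose, 3 fell and 35 were not called, against 1.43% of all genes called higher and 1.94% lower, with a median of −0.06. Beside Akt1, the IGF-binding protein Igfbp5 rose by 1.28 and 1.56 in its 2 probe sets, and the adaptor Grb10, which restrains insulin receptor signalling, by 0.77. Irs1, the docking protein that links the insulin receptor to PI3-kinase, gave 10.55, 10.48 and 10.40 at 4 weeks and 9.37, 9.31 and 9.04 with Akt on, and 10.83, 10.35 and 10.53 before AAC. It fell 2.36-fold (log2 −1.24, SE 0.15, adjusted p = 0.00285), and the groups lay well apart. Akt2, the isoform tied most closely to glucose uptake, gave 10.81, 11.10 and 11.02 at 4 weeks and 10.28, 10.09 and 10.24 with Akt on and fell by 0.78 (adjusted p = 0.0108), with −0.51 and −0.69 in 2 uncalled probe sets. Sesn1, a sestrin that restrains mTOR complex 1, fell by 0.62 (adjusted p = 0.0375). The IGF-1 receptor Igf1r differed by −0.22 and the PI3-kinase inhibitor Pik3ip1 by −0.29, neither called. Irs2 did not pass the filter. With 1 heart left out 1 to 4 genes of the list rose and 2 or 3 fell, with 1 rise without 4-week replicate 2 or Akt-on replicate 2. Igfbp5 was no longer called at its first probe set without 4-week replicates 2 or 3 or Akt-on replicates 1 or 2 (adjusted p up to 0.089), Grb10 without any 1 heart other than Akt-on replicate 1 (adjusted p up to 0.117) and Sesn1 without any 1 heart other than 4-week replicate 2 (adjusted p up to 0.114).

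FoxO factors are restrained by Akt, and their list of targets with atrophy and autophagy genes also moved both ways. Of 40 genes 3 rose, 4 fell and 33 were not called, against 1.43% of all genes called higher and 1.94% lower (median −0.07). Foxo4, a FoxO factor, gave 9.79, 9.58 and 9.54 at 4 weeks and 8.78, 8.81 and 8.85 with Akt on and fell by 0.83 (adjusted p = 0.00886). Fbxo32, the muscle ubiquitin ligase atrogin-1, gave 10.08, 9.31 and 10.54 at 4 weeks and 8.79, 9.07 and 8.81 with Akt on and fell 2.13-fold (log2 −1.09, SE 0.25, adjusted p = 0.0382). Its second 430A probe set fell by 0.83, and its 430B probe set differed by −0.50 without a call, with overlapping groups. Trim54, a sarcomeric ubiquitin ligase, fell by 0.57, and the cell cycle inhibitor Cdkn1c fell by 0.78. Of the genes that rose, Gadd45g, a stress sensor, gave 6.77, 6.48 and 7.03 at 4 weeks and 8.64, 8.06 and 8.58 with Akt on (log2 1.67, adjusted p = 0.00785). Sesn3, a sestrin that FoxO factors induce, rose by 1.18 and 1.76 in its 2 probe sets, and the cell cycle inhibitor Cdkn1a by 1.36, with 1.48 in an uncalled one. Gabarapl1, an autophagy gene, fell by 1.17 at a probe set other than the one that stood for it, called whichever heart was left out. Foxo4, Gadd45g and both probe sets of Sesn3 stayed called whichever heart was left out. Fbxo32 was no longer called at its first probe set without any 1 heart other than 4-week replicate 2 (adjusted p up to 0.113) and at its second without 4-week replicate 3 or Akt-on replicates 2 or 3 (adjusted p up to 0.0835). For Cdkn1c this held without any 1 heart other than before-AAC replicate 2 or 4-week replicate 2 (adjusted p up to 0.155), for Trim54 without 4-week replicate 2 or Akt-on replicate 2 (adjusted p up to 0.0727) and for Cdkn1a without 4-week replicate 3 or Akt-on replicate 3 (adjusted p up to 0.0872). With 1 heart left out 2 or 3 genes of the list rose and 1 to 3 fell.

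The transcriptional regulators of mitochondrial metabolism leaned lower, while no gene of the respiratory chain was called. Of 21 regulators none rose, 4 fell and 17 were not called, against 1.94% of all genes called lower, and the median was −0.43. The hearts lay apart downward in 10 of the 21 (10.7% of all genes) and upward in none. Klf15, a Krüppel-like factor of heart and muscle metabolism, gave 9.49, 8.70 and 9.74 at 4 weeks and 7.43, 7.82 and 8.22 with Akt on, a 2.8-fold fall (log2 −1.49, SE 0.27, adjusted p = 0.0134). Ppara, the nuclear receptor for fatty acids, fell by 0.90 (adjusted p = 0.0442), from 9.15, 9.13 and 9.78 to 8.55, 8.08 and 8.75, with −0.65 and −0.72 in 2 uncalled probe sets. The orphan receptor Esrrb fell by 0.80 (adjusted p = 0.0485; −0.13 uncalled in a second probe set) and the retinoid receptor Rxrb fell by 0.86 (adjusted p = 0.0495).

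Ppargc1a encodes PGC-1α, the coactivator that drives mitochondrial genes, and its 5 probe sets differed in size. The probe set that stood for the gene, 1460336_at, gave 9.70, 10.06 and 10.77 at 4 weeks and 9.74, 8.51 and 9.57 with Akt on, overlapping groups without a call (log2 −0.90, adjusted p = 0.22). The probe set 1434100_x_at gave 8.19, 8.65 and 9.11 at 4 weeks and 6.70, 6.71 and 6.93 with Akt on and fell 3.65-fold (log2 −1.87, SE 0.24, adjusted p = 0.00327). Falls were also called at 1434099_at (log2 −1.75) and 1456395_at (log2 −1.20), and 1437751_at differed by −0.34 without a call. All 5 lay on the same side of 0. Of the 62 oxidative phosphorylation genes none was called, with a median of −0.05 and differences from −0.53 to 0.75. Leaving out 1 heart at a time, the number of regulators that fell was 0 to 2, and without the 4 atrium-rich hearts it was 0, with all 21 below 0 and a median of −0.41. Klf15 was no longer called without 4-week replicate 3 (adjusted p = 0.0618), Ppara without any 1 heart other than Akt-on replicate 3 (adjusted p up to 0.146), Esrrb without any 1 of the 9 hearts (adjusted p up to 0.155), Rxrb without any 1 heart other than before-AAC replicate 2 or 4-week replicate 2 (adjusted p up to 0.154) and Ppargc1a at 1434099_at without 4-week replicates 2 or 3 or Akt-on replicate 2 (adjusted p up to 0.0872).

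Fuel genes changed in single steps. The counts of these lists stand beside 1.43% of all genes called higher and 1.94% lower. Slc2a4, the insulin-responsive glucose transporter GLUT4, gave 12.08, 11.95 and 12.34 at 4 weeks and 11, 11.04 and 11.10 with Akt on, and 12.13, 12.00 and 12.14 before AAC. It fell 2.12-fold (log2 −1.08, SE 0.12, adjusted p = 0.00171), and its second probe set fell by 1.13. The lactate and pyruvate transporter Slc16a1 fell by 0.72, from 11.96, 11.81 and 12.29 to 11.19, 11.37 and 11.34 (adjusted p = 0.017; −0.95 uncalled on chip 430B), and the pyruvate kinase Pkm rose by 0.63, from 12.96, 13 and 12.58 to 13.39, 13.54 and 13.48 (adjusted p = 0.0263). No other of the 23 genes of glycolysis and glucose uptake was called at 1 probe set a gene (median −0.04). At probe sets that did not stand for their gene, Pfkfb2 fell by 1.13, called whichever heart was left out, and Slc2a1 fell by 0.90, a call that went without any 1 heart other than before-AAC replicate 2 or Akt-on replicate 1 (adjusted p up to 0.107). Ugp2 fell at 3 such probe sets (log2 −0.96, −0.73 and −0.58), calls that went without 4-week replicate 3 (adjusted p = 0.0823), without before-AAC replicate 3, 4-week replicates 1 or 3 or Akt-on replicate 3 (adjusted p up to 0.0907) and without 4-week replicates 2 or 3 or Akt-on replicate 3 (adjusted p up to 0.0907). Among 28 genes of fatty acid uptake and oxidation, Cpt2 and Slc25a20, which pass acylcarnitines into the mitochondrion and turn them back to acyl-CoA, rose by 0.49 and 0.80 (adjusted p = 0.0348 and 0.0297). The lipoprotein lipase Lpl fell in both probe sets (log2 −0.44 and −1.13), and the list's median was 0.08. The second probe set of Slc25a20 differed by 0.64 and that of Cpt2 by 0.06, neither called. Of 28 genes of the TCA cycle and pyruvate dehydrogenase, Pdk2, a kinase that switches pyruvate dehydrogenase off, fell by 0.58 (adjusted p = 0.0279) and no other was called (median −0.16). Slc2a4 stayed called whichever heart was left out. The call of Slc16a1 went without 4-week replicate 3 (adjusted p = 0.0582), Pkm without before-AAC replicate 3, 4-week replicate 3 or Akt-on replicates 2 or 3 (adjusted p up to 0.0866), Slc25a20 without 4-week replicates 1 or 2 or Akt-on replicates 1 or 3 (adjusted p up to 0.0794) and that of Pdk2 without before-AAC replicate 3, 4-week replicates 2 or 3 or Akt-on replicates 1 or 2 (adjusted p up to 0.103). Cpt2 was no longer called without any 1 heart other than Akt-on replicate 1 (adjusted p up to 0.0909), and the probe sets of Lpl without any 1 heart other than Akt-on replicate 2 (adjusted p up to 0.136) and without 4-week replicate 3 or Akt-on replicate 2 (adjusted p up to 0.0714).

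Among 18 ion channel and gap junction genes none rose and 2 fell, against 1.43% of all genes called higher and 1.94% lower, with a median of −0.25. A wider reading by symbol, chosen after the values were seen, held 46 potassium channel genes. Of these 1 rose (Kcnj14) and 3 fell, and the median was 0.14, so that the list does not stand for potassium channels as a whole. Beside Kcnip2, the sulfonylurea receptor Abcc9, a subunit of the ATP-sensitive potassium channel of heart and vessel, gave 10.02, 10.59 and 11.27 at 4 weeks and 8.34, 8.88 and 9.38 with Akt on. It fell 3.39-fold (log2 −1.76, SE 0.30, adjusted p = 0.0104), and its 430B probe sets fell too (log2 −1.14 and −1.20). Abcc9 stayed called in all 3 probe sets whichever heart was left out. Kcnj8, its pore-forming partner and a pericyte marker, fell by 0.87 (adjusted p = 0.0343), from 9.33, 9.65 and 9.79 to 8.52, 8.85 and 8.80. It was the 1 called of 11 smooth muscle and pericyte markers tested. Of these 4 lay above 0 and 7 below, from −0.87 to 2.67 (median −0.21). Gja1, connexin 43, was read at 6 probe sets: 2 fell, 1415800_at (log2 −1.17) and 1438945_x_at (log2 −1.26), and the other 4 differed by −0.72, −0.66, −0.63 and −0.17 without a call. The call of Kcnj8 went without any 1 heart other than before-AAC replicate 2, before-AAC replicate 3 or 4-week replicate 1 (adjusted p up to 0.123), and those of Gja1 went without 4-week replicate 3 or Akt-on replicate 3 (adjusted p up to 0.0701) and without Akt-on replicates 2 or 3 (adjusted p up to 0.0616).

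Among 25 genes of adult contraction and calcium handling 1 rose (Casq2) and 1 fell (Myom2), with a median of 0.04. Over all genes 1.43% were called higher and 1.94% lower. Read at other probe sets, the sodium-calcium exchanger Slc8a1 rose by 0.90 on chip 430B (0.32 uncalled on chip 430A), a call that went without 4-week replicates 1 or 2 or Akt-on replicates 1 or 3 (adjusted p up to 0.0696). Jph2, which holds the junction of sarcoplasmic reticulum and plasma membrane together, fell by 0.95 on chip 430B (0.44 uncalled on chip 430A). The calcium pump Atp2a2 gave 14.42, 14.43 and 14.39 at 4 weeks and 14.46, 14.36 and 14.55 with Akt on (log2 0.05, adjusted p = 0.845), and its other 5 probe sets, from −0.69 to 0.03, were not called either. Myh6 and Myh7, the adult and the fetal ventricular myosin heavy chain, differed by −0.22 and −0.76 (adjusted p = 0.287 and 0.31). Of 12 stress and fetal cardiac genes 1 fell and none rose, against the same shares of all genes. That gene, the natriuretic peptide Nppb, gave 13.10, 13.24 and 13.56 at 4 weeks, 12.31, 12.81 and 11.80 with Akt on and 12.97, 13.14 and 12.93 before AAC. It fell 1.99-fold (log2 −0.99, SE 0.21, adjusted p = 0.0297), a call that went without before-AAC replicate 3, 4-week replicates 2 or 3 or Akt-on replicates 1 or 3 (adjusted p up to 0.11). Nppa differed by 0.21 and Acta1 by 0.37, neither called. Nppa was spread widely within each group, as the atrial genes were, while Acta1 gave 14.42, 14.17 and 13.91 at 4 weeks and 14.25, 14.79 and 14.56 with Akt on, both above the 12.29, 13.41 and 12.80 before AAC.

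Cell cycle genes leaned higher. Of 30 tested 3 rose, none fell and 27 were not called, against 1.43% of all genes called higher. The median was 0.44 (0.03 over all genes), and the hearts lay apart upward in 10 (12.5% of all genes) and downward in none (10.7% of all genes). Cdk1, the kinase that starts mitosis, gave 6.26, 6.95 and 5.62 at 4 weeks and 8.50, 8.63 and 7.98 with Akt on, a 4.27-fold rise (log2 2.09, SE 0.32, adjusted p = 0.00621). Before AAC it gave 7.55, 7.93 and 7.72, so that the 4-week hearts stood lowest and Akt-on did not differ from before AAC beyond the test's threshold (log2 0.64, adjusted p = 0.21). Cdca8, a subunit of the complex that corrects chromosome attachment, gave 6.90, 6.19 and 6.32 at 4 weeks and 8.12, 8.41 and 7.49 with Akt on (log2 1.53, adjusted p = 0.0136). Ccna2, cyclin A2, rose by 1.20 and 0.94 in its 2 probe sets (adjusted p = 0.02 and 0.04). Cdc20, the activator of the anaphase-promoting complex, rose by 1.5 in one probe set and differed by 1.01 without a call in the other. The called probe set of Cdc20 passed the filter on low signal only through the Akt-on hearts. Cdk1 stayed called whichever heart was left out. Cdca8 was no longer called without 4-week replicate 3 or Akt-on replicate 2 (adjusted p up to 0.0584), Ccna2 without 4-week replicates 2 or 3 or Akt-on replicate 2 (adjusted p up to 0.0733) and, at its second probe set, without any 1 heart other than Akt-on replicate 3 (adjusted p up to 0.118), and Cdc20 without Akt-on replicate 2 (adjusted p = 0.0574). Of the list 2 rose without 4-week replicate 2, 1 without 4-week replicate 3 and 1 without Akt-on replicate 2, and without the 4 atrium-rich hearts none of the 30 was called, with a median of 0.40.

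The promoters of Cdk1, Cdca8 and Cdc20 are shown because these mitotic genes rose, Cdc20 at 1 of its 2 probe sets, and hold both motifs that textbooks give for promoters active late in the cell cycle. The sequences are RefSeq's for GRCm38.p6, 250 bases before to 50 after the start of transcription, on the gene's strand, and the capitals mark the CCAAT box and the TTTGAA form of the CHR element, each on either strand (ATTGG and TTCAAA on the other).
Cdk1 (chr10:69352863-69353162, minus strand): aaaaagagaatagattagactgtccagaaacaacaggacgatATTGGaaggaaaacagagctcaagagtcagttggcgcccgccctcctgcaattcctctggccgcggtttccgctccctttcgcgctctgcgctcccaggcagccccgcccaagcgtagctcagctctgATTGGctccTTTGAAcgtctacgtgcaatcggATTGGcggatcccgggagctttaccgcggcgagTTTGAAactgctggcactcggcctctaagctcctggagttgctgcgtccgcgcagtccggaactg
Cdca8 (chr4:124936868-124937167, minus strand): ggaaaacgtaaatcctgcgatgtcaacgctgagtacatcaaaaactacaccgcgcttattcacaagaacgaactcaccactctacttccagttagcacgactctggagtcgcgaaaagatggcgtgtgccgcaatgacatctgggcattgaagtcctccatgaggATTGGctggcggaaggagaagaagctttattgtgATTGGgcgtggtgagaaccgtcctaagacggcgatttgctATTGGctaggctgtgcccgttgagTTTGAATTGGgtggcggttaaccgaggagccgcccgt
Cdc20 (chr4:118437294-118437593, minus strand): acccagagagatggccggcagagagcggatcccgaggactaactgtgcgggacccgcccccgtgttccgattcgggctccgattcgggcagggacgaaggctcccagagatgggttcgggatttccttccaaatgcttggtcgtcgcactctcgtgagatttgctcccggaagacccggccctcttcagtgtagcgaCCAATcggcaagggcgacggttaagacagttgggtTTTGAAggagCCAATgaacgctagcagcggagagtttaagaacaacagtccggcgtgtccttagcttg
Cdk1 held 3 CCAAT boxes and 2 TTTGAA motifs, Cdca8 4 and 1, the last of which overlaps a CCAAT box by a base, and Cdc20 2 and 1. Of the 30 cell cycle genes tested 23 had a promoter in the table, and Ccna2 was not among them. At least 1 CCAAT box stood in 20 of these and both motifs in 10, against 37.4% and 7% of all 32851 promoters of that length. The former count genes, where any promoter of E2f2, Mcm7 or Ccnd3 could match, and the latter count single promoters. A match is a run of letters and not a measured binding site.

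Of 27 angiogenic factors and receptors 1 rose and none fell, against 1.43% of all genes called higher and 1.94% lower. Angptl4, a secreted inhibitor of lipoprotein lipase, gave 6.52, 7.83 and 5.17 at 4 weeks and 9.81, 9.02 and 8.80 with Akt on and rose 6.51-fold (log2 2.70, SE 0.57, adjusted p = 0.0297). The 4-week hearts were spread over more than 2 log2 units, and the call went without any 1 heart other than before-AAC replicate 1, before-AAC replicate 2 or 4-week replicate 2 (adjusted p up to 0.0864). Vegfa, the main endothelial growth factor, gave 9.76, 10.08 and 10.26 at 4 weeks and 9.77, 9.48 and 9.62 with Akt on (log2 −0.41, adjusted p = 0.211), and its second probe set differed the other way, by 0.42 (adjusted p = 0.377). Neither was called, and Angpt2 did not pass the filter. The list's median was −0.13. The 14 endothelial markers had none called at 1 probe set a gene, a median of −0.24 and 12 below 0. At another probe set Fabp4 fell by 0.94, a call that went without any 1 heart other than 4-week replicate 1 (adjusted p up to 0.144), and Egfl7 fell by 0.49, a call that went without any 1 of the 9 hearts (adjusted p up to 0.128). Their summed signal was 23536 to 27761 at 4 weeks and 20337 to 22771 with Akt on, ranges that did not overlap.

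Among 23 secreted factors of heart and muscle 2 rose and 1 fell, against 1.43% of all genes called higher and 1.94% lower. Fstl1, a follistatin-like protein secreted by muscle, gave 11.14, 10.84 and 10.44 at 4 weeks and 12.07, 12.58 and 11.82 with Akt on. It rose 2.55-fold (log2 1.35, SE 0.23, adjusted p = 0.00987), and its second probe set by 1.54 (adjusted p = 0.00952). Both stayed called whichever heart was left out, and at both the Akt-on hearts stood above all 6 others. Adm, the vasodilator peptide adrenomedullin, gave 8.28, 7.59 and 7.17 at 4 weeks and 10.83, 8.91 and 9.43 with Akt on and rose 4.13-fold (log2 2.05, adjusted p = 0.0246; 1.23 uncalled on chip 430B). The chemokine Cxcl12 fell by 1.04, from 11.38, 12.45 and 12.03 to 11.01, 11.14 and 10.60 (adjusted p = 0.0336), with −0.74 and −0.45 in 2 uncalled probe sets. Igf1 rose by 0.90 at a probe set other than the one that stood for it, a call that went without any 1 heart other than before-AAC replicate 1, before-AAC replicate 2 or 4-week replicate 1 (adjusted p up to 0.139). Adm was no longer called without 4-week replicates 2 or 3 (adjusted p up to 0.0958) and Cxcl12 without any 1 heart other than 4-week replicate 1 (adjusted p up to 0.107).

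Genes of protein folding and turnover changed singly. Of 34 genes of the integrated stress and unfolded protein response 3 rose and 1 fell, against 1.43% of all genes called higher and 1.94% lower (median 0.12). The same shares apply to the other lists of this paragraph. Manf, a factor secreted from the endoplasmic reticulum, gave 9.38, 9.29 and 9.47 at 4 weeks and 10.38, 10.65 and 10.71 with Akt on and rose 2.3-fold (log2 1.20, SE 0.14, adjusted p = 0.00171). It had been higher before AAC than at 4 weeks (9.94, 10.12 and 10.16). Dnajb11, a chaperone of the endoplasmic reticulum, rose by 0.77, and Herpud1, which serves the degradation of its misfolded proteins, fell in both probe sets (log2 −1 and −0.99). Mthfd2, a mitochondrial folate enzyme, rose by 0.88 and 1.59. Its second probe set passed the filter on low signal only through the Akt-on hearts. Psmb10, an immunoproteasome subunit, gave 10.42, 10.40 and 10.38 at 4 weeks and 9.16, 8.99 and 8.89 with Akt on and fell 2.6-fold (log2 −1.38, SE 0.13, adjusted p = 0.000512), while Psmc4 and Psmd14 of the regulatory particle rose by 0.70 and 0.62 among 37 proteasome genes (median 0.11). The second Psmc4 probe set differed by 0.31 without a call. Of 26 heat shock genes and chaperones Hspb3 rose by 0.71 and Dnajb1 and Hspe1 fell (log2 −0.94 and −0.72), with second probe sets of Dnajb1 (−0.42) and Hspe1 (−0.61) uncalled. Manf, Psmb10 and Mthfd2 at its second probe set stayed called whichever heart was left out. The others did not: the call of Dnajb11 went without 4-week replicates 1 or 2 or Akt-on replicate 3 (adjusted p up to 0.0727), that of Herpud1 without 4-week replicates 1 or 3 or Akt-on replicates 2 or 3 (adjusted p up to 0.0879) and, at its second probe set, without before-AAC replicate 3, 4-week replicates 1 or 3 or Akt-on replicates 2 or 3 (adjusted p up to 0.109), Psmc4 without any 1 heart other than before-AAC replicate 2, 4-week replicate 3 or Akt-on replicate 1 (adjusted p up to 0.103), Psmd14 without 4-week replicates 2 or 3 or Akt-on replicate 2 (adjusted p up to 0.0804), Hspb3 without any 1 heart other than 4-week replicate 2 or Akt-on replicate 2 (adjusted p up to 0.123), Dnajb1 without any 1 heart other than before-AAC replicate 1, before-AAC replicate 2 or 4-week replicate 2 (adjusted p up to 0.121), Hspe1 without any 1 heart other than 4-week replicate 1 (adjusted p up to 0.154), and Mthfd2 at its first probe set without 4-week replicates 1, 2 or 3 or Akt-on replicates 1 or 3 (adjusted p up to 0.104).

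The protein synthesis lists stayed near 0. Over all genes 1.43% were called higher and 1.94% lower, which applies to each list of this paragraph. Of 37 genes of ribosome biogenesis and translation Eif4b, an initiation factor, fell by 0.52 (adjusted p = 0.0329), with −0.82 and −0.45 in 2 uncalled probe sets, and no other was called (median −0.05). None of 39 cytosolic ribosomal protein genes was called at 1 probe set a gene (median −0.06). Rpl41 rose by 1.37 at another, a call that went without any 1 heart other than before-AAC replicate 1, before-AAC replicate 2 or Akt-on replicate 1 (adjusted p up to 0.101). This probe set passed the filter on low signal only through the Akt-on hearts. Of 57 mitochondrial ones Mrpl20 and Mrps11 rose by 1.01 and 0.85 (median −0.01). Among 30 genes of cholesterol and fatty acid synthesis the desaturase Scd2 rose by 1.56, from 9.31, 8.62 and 8.63 to 11.07, 9.91 and 10.26 (adjusted p = 0.0115; 1.19 uncalled in its second probe set), and Fdps, of the mevalonate pathway, rose by 0.75 (adjusted p = 0.0302). No other of the 30 was called at 1 probe set a gene (median 0.14). Fdft1, of the same list, was called lower at a probe set that did not stand for it. With 1 heart left out none of Eif4b, Mrpl20, Mrps11, Scd2 and Fdps kept its call throughout. Eif4b was no longer called without any 1 heart other than Akt-on replicate 1 (adjusted p up to 0.0983), Mrpl20 without 4-week replicates 2 or 3 or Akt-on replicates 2 or 3 (adjusted p up to 0.0727), Mrps11 without 4-week replicates 1, 2 or 3 or Akt-on replicate 3 (adjusted p up to 0.0699), Scd2 without 4-week replicate 3 (adjusted p = 0.0534) and Fdps without 4-week replicates 2 or 3 or Akt-on replicates 2 or 3 (adjusted p up to 0.108).

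Of the clock genes Dbp and Nr1d2 fell. For each list in this paragraph the share of all genes called lower was 1.94%. Dbp, a transcription factor that the clock turns on, gave 11.33, 10.50 and 11.28 at 4 weeks and 9.61, 9.67 and 9.13 with Akt on and fell 2.96-fold (log2 −1.56, SE 0.22, adjusted p = 0.00479), and its second probe set fell by 1.65. Nr1d2, the clock repressor REV-ERBβ, fell by 0.88, from 11.33, 11.07 and 11.42 to 10.53, 10.43 and 10.24 (adjusted p = 0.0081; −0.32 uncalled in its second probe set). No other of the 15 clock genes was called (median −0.24), and the hour at which hearts were taken is not given in the sources used here. Among 18 immediate early genes the phosphatase Dusp1 fell by 1.04, from 11.05, 10.74 and 11.23 to 9.77, 10.26 and 9.86 (adjusted p = 0.0308). Of 28 antioxidant and metallothionein genes the glutathione transferases Gstm1 and Gstk1 fell. Gstm1 gave 12.02, 11.72 and 11.77 at 4 weeks and 11.05, 10.55 and 10.72 with Akt on (log2 −1.07, adjusted p = 0.00404), fell in 2 more probe sets (log2 −1.05 and −1.07) and differed by −0.41 without a call in the remaining one. Gstk1 fell by 0.69. Genes of the Gstm family are alike in sequence, and their probe sets may share signal.

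Survival and inflammation lists held 1 call each, against 1.43% of all genes called higher and 1.94% lower. The survival factor Mcl1 fell by 0.71 at its first probe set, from 11.92, 11.73 and 12.17 to 11.08, 11.36 and 11.24 and fell in 2 others (log2 −0.77 and −0.79), while 3 more differed by −0.56, −0.45 and −0.21 without a call. It was the 1 called of 21 genes of the Bcl-2 family (median 0.09). The chemokine Ccl8 rose by 0.88, from 8.68, 8.48 and 8.56 to 9.47, 9.73 and 9.15, the 1 called of 21 genes of complement and cytokine inflammation (median 0.23). None of 25 MHC class I and interferon-induced genes was called when read at 1 probe set a gene (median −0.11). At another probe set Ifi35 fell by 0.74, a call that went without any 1 heart other than before-AAC replicate 1 or Akt-on replicate 3 (adjusted p up to 0.116). So did Gpx4 of the antioxidant list (log2 −0.67) and Klf6 of the immediate early genes (log2 −0.90), whose calls went without any 1 heart other than 4-week replicate 1 or Akt-on replicate 2 (adjusted p up to 0.163) and without any 1 heart other than 4-week replicate 2 (adjusted p up to 0.12). Dusp1 was no longer called without before-AAC replicate 3, 4-week replicates 1 or 3 or Akt-on replicates 1 or 3 (adjusted p up to 0.112), Gstk1 without any 1 heart other than 4-week replicate 2 or Akt-on replicate 1 (adjusted p up to 0.136), Mcl1 without 4-week replicate 3 or Akt-on replicates 1 or 3 (adjusted p up to 0.0879) at the first probe set, any 1 heart other than 4-week replicate 2 (adjusted p up to 0.106) at the second and 4-week replicates 1 or 3 or Akt-on replicate 3 (adjusted p up to 0.0864) at the third, and Ccl8 without 4-week replicates 2 or 3 or Akt-on replicates 1 or 2 (adjusted p up to 0.0837). The same held for Dbp at its second probe set without 4-week replicates 1 or 3 (adjusted p up to 0.0879) and Gstm1 at 1425627_x_at without 4-week replicate 3 or Akt-on replicates 2 or 3 (adjusted p up to 0.0835). Dbp and Nr1d2 at their first probe sets and Gstm1 at 1416416_x_at and 1448330_at stayed called whichever heart was left out.

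**Figure D5:**
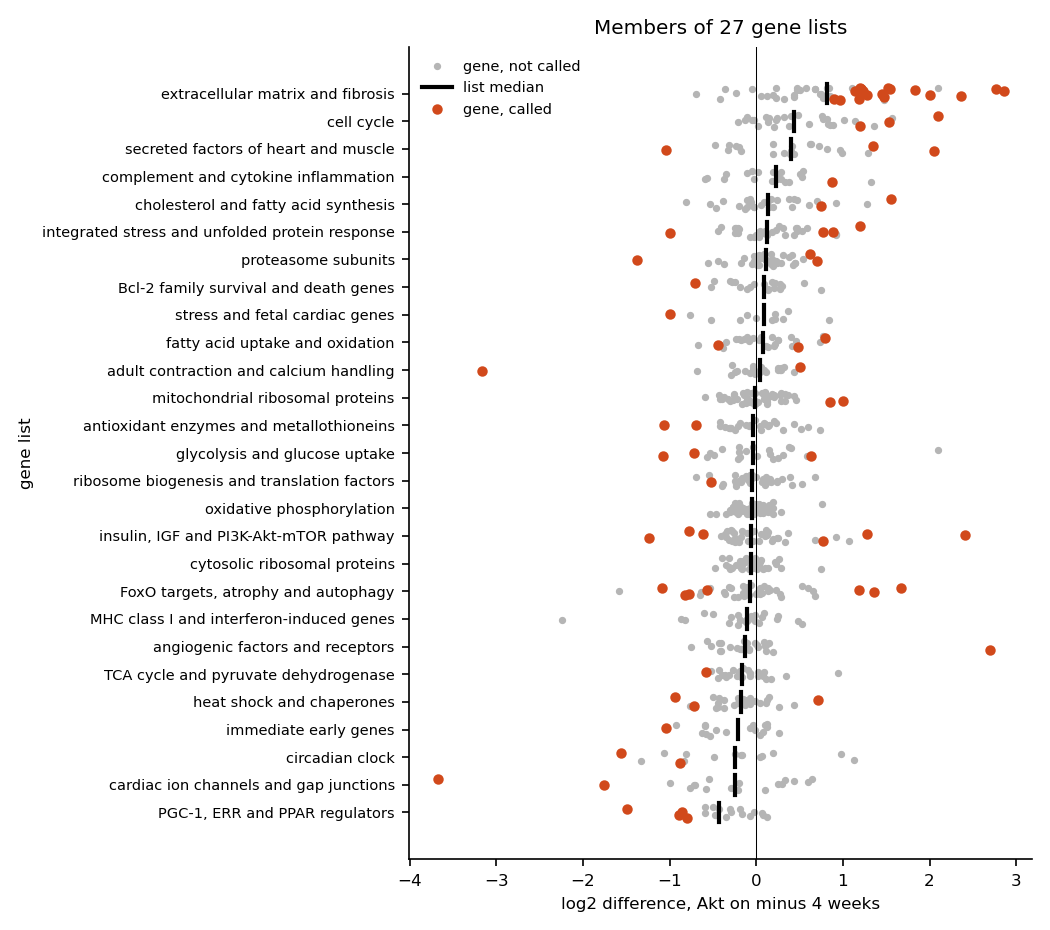
Log2 difference, Akt on minus 4 weeks (horizontal axis), of every tested gene of 27 functional lists (vertical axis, ordered by median), with called genes in colour, uncalled ones in grey and the list median as a bar. The matrix list has the highest median (0.82) and the regulators of mitochondrial metabolism the lowest (−0.43), while most lists lie within 0.3 of 0.

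Markers of other cell types were few among the calls, where 1.43% of all genes were called higher and 1.94% lower. Beside the 4 fibroblast genes and Kcnj8, Cidea, a lipid droplet gene used as a marker of brown fat, rose by 0.65, from 9.60, 9.58 and 9.27 to 10.02, 10.23 and 10.15 (adjusted p = 0.0395), a call that went without any 1 heart other than before-AAC replicate 1 or Akt-on replicate 1 (adjusted p up to 0.137). Cidea was the 1 called higher of 4 brown fat markers tested, of which 2 lay above 0 and 2 below (median 0.25). Ppargc1a, another of the 4, fell at probe sets that did not stand for it. The summed signals of the 4 were 16342 to 21240 at 4 weeks and 16289 to 18123 with Akt on. Kcnj8 was the 1 called of 11 smooth muscle and pericyte markers. None was called among 13 macrophage, 4 lymphocyte, 2 neutrophil, 4 adipocyte, 2 erythroid, 7 Schwann cell and neuron, 6 mesothelial, 13 atrial and 5 ventricular markers. The atrial markers had a median difference of 0.54, and their summed signals spanned 9251 to 79743 in the 4-week hearts and 9223 to 83016 in the Akt-on hearts. The labels give the tissue as heart and do not name a chamber. The ventricular markers summed to 71942 to 75376 at 4 weeks and 64507 to 85910 with Akt on.

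Against the hearts before AAC, which share the fit, a few of these genes are given by their values only, since the comparisons share hearts. Kcnip2 at 1436275_at stood −7.10 from before AAC with Akt on (adjusted p = 1.45e-05) and −0.96 at 4 weeks (adjusted p = 0.24). For Trdn at 1426143_at these were 3.90 (adjusted p = 2.74e-05) and −0.87 (adjusted p = 0.0912), and for Irs1 −1.33 (adjusted p = 0.000725) and −0.09 (adjusted p = 0.773). For Postn they were 2.92 (adjusted p = 0.000939) and 0.56 (adjusted p = 0.377). In these 4 genes the Akt-on hearts were called against the hearts before AAC and the 4-week hearts were not. In Bex1 and Manf both groups were called: Bex1 had risen at 4 weeks by 1.35 (adjusted p = 0.0311) and stood at −1.16 with Akt on (adjusted p = 0.0266), and Manf stood at −0.69 at 4 weeks (adjusted p = 0.0212) and stood at 0.51 with Akt on (adjusted p = 0.0287).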

How the data were processed

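Heart RNA of 9 samples was hybridized to the Affymetrix chips 430A and 430B. The authors deposited intensities, the MAS5 signal per probe set on a linear scale (MAS5 per the submitters' processing notes, its version not given in the sources used here). The trimmed mean (2% off each end) was 500.19 to 500.22 on the 430A arrays and 122.51 on the 430B arrays, so each chip had been scaled to its own level. Whether RNA was pooled is not given in the sources used here.

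Genes came from the platform annotation. Left out were 128 control probe sets, 936 with several symbols and 9160 with none. Probe sets whose mean signal over all 9 hearts lay in the highest 60% of their chip were tested, so that a probe set low in 1 group could enter through another. Log2 of the signal, with no pseudocount, was fitted per chip with 3 group means over all 9 hearts (limma 3.58.1 in R 4.3.3, lmFit, eBayes with trend), and p-values were adjusted by Benjamini-Hochberg over both chips. Lists and counts of genes were read through 1 probe set a gene, from chip 430A where possible and then by the highest mean. A list is described by its counts and median, with no set test. The fit was tested on simulated data.

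The members and lists were chosen with earlier results of these data known. Named were up to 12 rises and 12 falls, called, with hearts not overlapping and of at least median signal, ordered by the number of 9 fits without 1 heart that kept the call and then by size, leaving out clone-style names. Up to 3 called members of each list with the smallest p were named, and Akt1, Nppa, Nppb, Myh6, Myh7, Acta1, Atp2a2, Vegfa, Angpt2, Fstl1, Fbxo32, Ppargc1a, Pik3ip1, Igf1r and Irs2. Other list members named, and Casq1 and Ryr2, were chosen after their values were seen. Alternatives covered scaling, pseudocount, filter, variance model, samples, replicate block, probe set choice, adjustment and atrial transcripts. In the descriptions 4-week replicates 1 and 3 share a number, but these 2 were the least alike of the 3 4-week pairs (r = 0.953 against 0.961 and 0.966 on chip 430A) and were kept as separate samples. Only 3 hearts a group limit the precision, and the median SE of a log2 difference was 0.22.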

Additional observations from a re-analysis of the deposited data

How the results depend on the processing

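Of 648 probe sets and 432 genes called, fewer were called with a variance without a trend (341 and 222), in the 6 hearts compared alone (244 and 156), with 4-week replicates 1 and 3 averaged (369 and 244) and without the 4 hearts richest in atrial transcripts (78 and 53), a setting chosen after seeing the data. With the replicate number as a block they were 412 and 271; same-numbered hearts did not deviate together (r = 0.14, 0.05 and −0.01 on chip 430A), so the number was not taken as a pairing. Without a filter 286 genes were called. Leaving out each heart gave 235 to 612 probe sets and 157 to 392 genes. Quantile scaling (611), robust variance (689), a pseudocount of 32 (721), the highest 40% (682), adjustment within each chip (723) and the atrial score as a covariate (726) kept the count of probe sets within 1.5 times. Akt1 at 1425711_a_at stayed called, and its other 2 probe sets uncalled, in every alternative that tested them. Of 80 called probe sets of named genes none changed sign under any of these alternatives. Of them 47 stayed called without a trend, 48 in the 6 hearts alone, 64 with the block, 24 without the 4 hearts, 44 to 67 without 1 heart and 78 under quantile scaling. Signal near the low end of a chip limits the sizes given for dim probe sets.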

Other observations

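Some gene families were read by the start of their symbols, chosen after the values were seen and so described with no test. Of 31 collagen chains 9 rose and none fell, against 1.43% of all genes called higher, with 27 above 0 and a median of 0.74. This largely repeats the matrix list, which holds the risen Col1a1, Col1a2, Col3a1, Col5a1, Col5a2, Col8a1 and Col15a1. Only Col4a5 and Col5a3 were risen chains outside that list. The hnRNP genes, which bind and help to splice nuclear RNA, had 2 of 19 that fell and none that rose, against 1.94% of all genes called lower, with 15 below 0 and a median of −0.26 (0.03 over all genes). Hnrnpa1 gave 9.65, 9.59 and 9.70 at 4 weeks and 8.84, 8.57 and 8.69 with Akt on (log2 −0.95, adjusted p = 0.00479) and Hnrnph3 8.65, 8.90 and 8.87 at 4 weeks and 7.96, 7.81 and 7.85 with Akt on (log2 −0.94, adjusted p = 0.00902). At single other probe sets Hnrnpr fell by 1.12 and Hnrnpab rose by 0.96, both called whichever heart was left out. The other 430A probe sets of these genes were not called. They differed by −0.12 and 0.25 for Hnrnpr and by −0.45, −0.26, −0.19 and −0.055 for Hnrnpab. Hnrnpk fell by 0.61 and Hnrnpu fell by 1.06, calls that went without any 1 of the 9 hearts (adjusted p up to 0.14) and without 4-week replicates 1 or 3 or Akt-on replicate 2 (adjusted p up to 0.073). Their other 430A probe sets, from −0.49 to 0.16 for Hnrnpk and from −0.32 to 0.16 for Hnrnpu, were not called. Of 9 genes of the SR splicing factors 1 fell (Srsf5, log2 −0.60) and 7 lay below 0, and that call went without any 1 heart other than Akt-on replicate 1 (adjusted p up to 0.14).

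Nnt, the mitochondrial transhydrogenase that makes NADPH, gave 12.89, 13.29 and 13.41 at 4 weeks and 11.90, 12.13 and 12.24 with Akt on and fell by 1.11 (adjusted p = 0.00337), with a second probe set at −1.09. Capn3, the calpain typical of skeletal muscle, rose by 1.38 and 1.00 on the 2 chips, from 7.57, 7.39 and 7.38 to 8.67, 8.58 and 9.22 on chip 430A. Kcnj14, an inward rectifier, rose by 1.00, from 9.54, 9.21 and 9.44 to 10.30, 10.56 and 10.32. Cks2, a small partner of cyclin-dependent kinases, rose by 1.71, from 6.74, 6.59 and 6.82 to 8.37, 8.66 and 8.25. It passed the filter on low signal only through the Akt-on hearts. These 4 genes were chosen after their values were seen, and each stayed called at its first named probe set whichever heart was left out.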
